A study of Mus musculus with 24 samples.

Results

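The genes described here are 7 smooth muscle contractile genes, Myh11, Cnn1, Actg2, Myl9, Tpm1, Tpm2 and Des, out of 18820 genes with a probe set of their own on the array. They were chosen by name as textbook components of the contractile apparatus of smooth muscle, with earlier results of these data known. Each was read by the only single-gene probe set it has. Whole livers came from male C57BL/6J mice, 4 to 6 months old, which received for 7 weeks a high fat diet with 45% of its energy from fat. The diet was rich in trans-unsaturated fatty acids from partially hydrogenated soy oil (Trans), in cis-unsaturated fatty acids from canola and palm olein oil (Cis) or in saturated fatty acids from cocoa butter (Saturated). There were 8 mice per diet and 1 array per mouse, and no group on a low fat diet was analysed here. All values are on the log2 scale, so that a difference of 1 is a doubling of the signal.

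In smooth muscle cells, myosin pulls on actin filaments, and phosphorylation of the regulatory light chain of myosin starts the contraction. Tropomyosin and calponin lie along the actin filament and regulate its contact with myosin, and desmin filaments tie the contractile units together. In liver, these cells make up the walls of arteries, portal veins and larger bile ducts, while stellate cells and myofibroblasts carry part of the same set of proteins. Many of the genes are transcribed under serum response factor and myocardin, which act through a short DNA element named the CArG box.

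To show where this element lies, the 250 bases before a RefSeq start site (build GRCm38.p6) were searched for the CArG box. It reads the same way on both strands, and its matches may overlap. A window was at hand for 5 of the 7 genes, Cnn1, Myl9, Tpm1, Tpm2 and Des. An exact match was found in 1 of these 5, Myl9, against 1.47% of all 32851 windows. With up to 1 mismatch allowed, matches were found in 2 of the 5, Myl9 and Tpm1, against 18.6% of all windows. The matches are given here in capitals, within 30 bases of sequence and 5′ to 3′ on the strand of the gene, together with those of Acta2, whose values followed the 7 genes most closely.
Myl9, exact match, 161 bases before the start site, chr2:156775293-156775322, plus strand: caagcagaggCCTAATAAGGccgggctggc
Myl9, 1 mismatch, 99 bases before the start site, chr2:156775355-156775384, plus strand: cattcttctgCCTTGTAAGGccgggcggcc
Tpm1, 1 mismatch, 221 bases before the start site, chr9:67049415-67049444, minus strand: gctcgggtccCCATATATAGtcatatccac
Tpm1, 1 mismatch, 80 bases before the start site, chr9:67049274-67049303, minus strand: acaagcttttCCAAAAAAGTattggctgtc
Acta2, 1 mismatch, 84 bases before the start site, chr19:34255438-34255467, minus strand: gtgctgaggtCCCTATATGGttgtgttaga
Acta2, 1 mismatch, 34 bases before the start site, chr19:34255388-34255417, minus strand: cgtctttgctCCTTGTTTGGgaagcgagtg
A match describes the letters of these windows and not a bound site. The start sites used for Myl9 and Tpm1 lie inside the spans of these genes. Both Tpm1 matches lie within the span of Tpm1, chr9:67022590-67049672. No window was read for the other 2 genes.

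Array medians lay between 2.94 and 3.06. Trans replicate 4 resembled the remaining arrays least, with a median correlation of 0.975, against 0.983 for Trans replicate 1 and at most 0.986. All 12 measured hepatocyte markers had a mean signal over 20 on the linear scale, and their summed signal ran from 50718 to 57312, so that the arrays carry the profile of liver. The smooth muscle genes were low in this tissue. A mean signal over 20 was reached by 3 of the 7, Tpm1 (35.4), Tpm2 (25.7) and Myl9 (21.7). The mean log2 values of Cnn1 (1.83) and Actg2 (2.29) lay below the median of every array, where background weighs most in the signal.

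The mean of all 7 genes was higher on the Trans diet than on the Saturated diet, with a median log2 difference of 0.39 and a range from 0.06 (Des) to 0.58 (Tpm2). None of the differences passed the test. Limma called 0 of the 7 at an adjusted p under 0.05 over all 35556 probe sets, where 0.00844% were called. At an unadjusted p under 0.05, 4 of the 7 were higher (Tpm2, Actg2, Myh11 and Cnn1) and 0 lower, against 3.79% of all probe sets higher and 3.54% lower. Tukey's post hoc test gave 2 of the 7 at an unadjusted p under 0.05, Actg2 and Tpm2, and 0 after Benjamini-Hochberg adjustment. The median log2 difference over all genes was 0.00, with a 5th percentile of −0.20 and a 95th percentile of 0.20, and the mean was higher in Trans for 51.6% and lower for 48.4% of them. In bulk tissue, more cells of a type and more RNA per cell cannot be told apart.

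**Figure D1:**
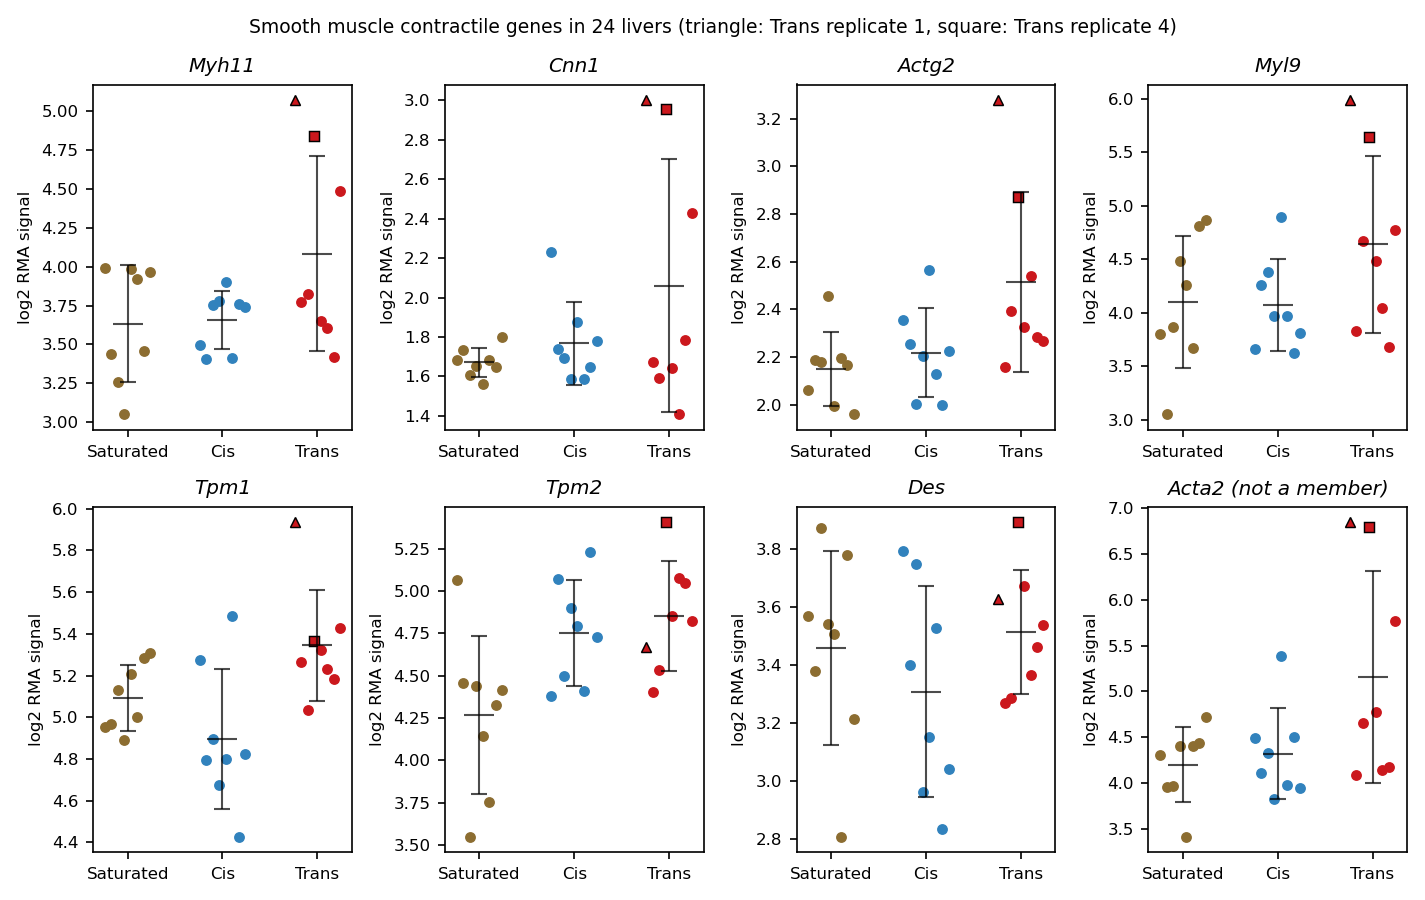
Log2 RMA signal of the 7 smooth muscle contractile genes and of Acta2 in each of the 24 livers, by diet (x axis). Points are livers, bars are the mean ± SD of 8 livers, the triangle is Trans replicate 1 and the square is Trans replicate 4. For Myh11, Cnn1, Actg2, Myl9 and Acta2 both of these livers lie above all 16 Saturated and Cis livers.

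A large part of the difference came from 2 livers. Averaged over the 7 genes, Trans replicate 1 lay 1.03 and Trans replicate 4 lay 0.94 above the Saturated mean. Trans replicate 8 followed at 0.48, and the other 21 livers lay between −0.19 and 0.23. Trans replicate 1 exceeded all 16 Saturated and Cis livers in 5 of the 7 genes, all but Tpm2 and Des. Trans replicate 4 exceeded them in 6, all but Tpm1. Trans replicate 8 did so in 2, Myh11 and Cnn1, and no other Trans liver did so in any gene. The share of all genes in which each of these livers exceeds the 16 was not determined. These counts therefore have no background beside them, and Trans replicate 4 was the array least like the rest. Without Trans replicate 1 the median log2 difference from Saturated was 0.26. Without both livers it was 0.15, with 6 of 7 means higher and 1 of 7 at an unadjusted p under 0.05.

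**Figure D2:**
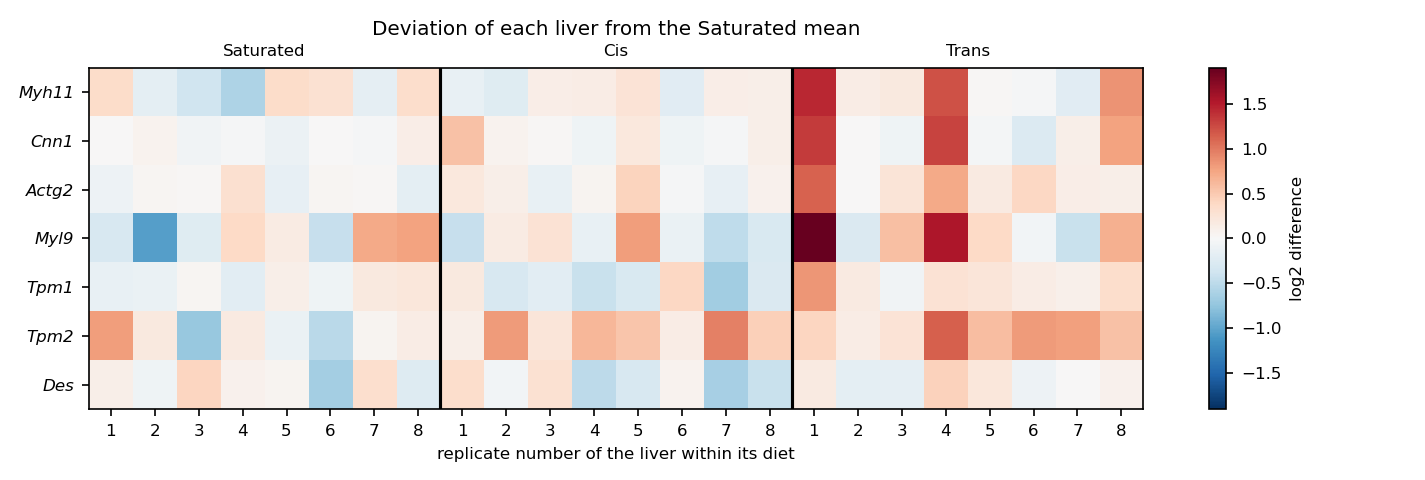
Deviation of each liver from the mean of the 8 Saturated livers (log2 difference, colour scale) for the 7 genes (rows), with livers ordered by diet and replicate number (columns). Trans replicates 1 and 4 stand out in the upper 4 rows, Myh11 to Myl9, while Tpm2 is mostly red in both the Cis and the Trans livers.

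Myh11 encodes the myosin heavy chain of smooth muscle, the motor protein that defines the differentiated cell. Its log2 signal was lowest at 3.05, median 3.69 and highest at 3.99 in Saturated. In Cis it ran from 3.41 over a median of 3.75 to 3.90. In Trans it ran from 3.42 over a median of 3.80 to 5.07. The medians of the 3 diets were thus close to each other, the groups overlapped, and the upper end of the Trans group stood apart with replicates 1 (5.07), 4 (4.84) and 8 (4.48). The log2 difference was 0.45 against Saturated (standard error 0.21, adjusted p = 0.654, limma) and 0.43 against Cis (adjusted p = 0.802), and without replicates 1 and 4 these values were 0.16 and 0.14.

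Myl9 encodes the regulatory light chain, whose phosphorylation switches the motor on. It had the widest spread between livers of the 7 genes, with an SD within diets of 0.65. The log2 signal ran from 3.05 over a median of 4.06 to 4.86 in Saturated, from 3.62 over 3.97 to 4.90 in Cis and from 3.67 over 4.58 to 5.99 in Trans. Trans replicates 1 (5.99) and 4 (5.64) were above every other liver, and the remaining 6 Trans livers lay within the range of the other diets. The log2 difference was 0.54 against Saturated (standard error 0.31, adjusted p = 0.739, limma) and 0.57 against Cis (adjusted p = 0.811), or 0.15 and 0.17 without these 2 livers.

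Actg2 encodes the gamma actin of smooth muscle, the thin filament partner of Myh11 in visceral muscle. Its log2 signal ran from 1.96 over a median of 2.17 to 2.46 in Saturated, from 2.00 over 2.22 to 2.57 in Cis and from 2.16 over 2.36 to 3.28 in Trans. Of the 8 Trans livers, 8 lay above the Saturated mean and 7 above the Cis mean, and the groups overlapped. The log2 difference was 0.36 against Saturated (standard error 0.13, adjusted p = 0.506, limma) and 0.30 against Cis (adjusted p = 0.794). Without Trans replicates 1 (3.28) and 4 (2.87) it was 0.18 and 0.11. The sequences of actin genes are closely alike, and whether the probes of Actg2 also caught other actins was not tested.

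Cnn1 encodes calponin, an actin binding protein that restrains the motor and is used as a marker of mature smooth muscle. In Saturated its log2 signal was confined between 1.56 and 1.80, with a median of 1.67. In Cis it ran from 1.59 over 1.72 to 2.23, and in Trans from 1.41 over 1.73 to 3.00. The lowest of all 24 values was a Trans liver (replicate 6), and so were the 3 highest, replicates 1 (3.00), 4 (2.95) and 8 (2.43). The SD was 0.64 in Trans against 0.07 in Saturated. The log2 difference was 0.39 against Saturated (standard error 0.19, adjusted p = 0.678, limma) and 0.29 against Cis (adjusted p = 0.847). Without replicates 1 and 4 it was 0.08 against Saturated and −0.01 against Cis.

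Des encodes desmin, the intermediate filament protein of muscle, which in rodents is also a marker of stellate cells. Its log2 signal ran from 2.81 over a median of 3.52 to 3.87 in Saturated, from 2.83 over 3.28 to 3.79 in Cis and from 3.27 over 3.50 to 3.89 in Trans. The highest livers of the 3 groups lay close together, the groups overlapped, and no Trans liver was below 3.27. The log2 difference of Trans from Saturated was 0.06 (adjusted p = 0.969, limma), with a 95% interval from −0.25 to 0.36. It turned to −0.03 without Trans replicates 1 and 4. Against Cis it was 0.21 (adjusted p = 0.865), with an interval from −0.10 to 0.52.

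The 2 tropomyosin genes, whose proteins wind along the actin filament in muscle and other cells, differed from each other in the order of the diets. Tpm2 had a log2 signal from 3.55 over a median of 4.37 to 5.06 in Saturated, from 4.38 over 4.76 to 5.23 in Cis and from 4.40 over 4.84 to 5.40 in Trans. All 8 Cis livers and all 8 Trans livers lay above the Saturated mean, although the groups overlapped and Saturated replicate 1 reached 5.06. The log2 difference from Saturated was 0.58 in Trans (standard error 0.18, adjusted p = 0.429, limma) and 0.48 in Cis (standard error 0.18, adjusted p = 0.642), both comparisons using the same Saturated livers. Between Trans and Cis it was 0.10, with a 95% interval from −0.27 to 0.47. The Trans value was 0.52 without Trans replicates 1 and 4 (adjusted p = 0.688, and 0.222 to 1 over all alternatives), so Tpm2 was little affected by them.

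Tpm1 had a log2 signal from 4.89 over a median of 5.07 to 5.31 in Saturated, from 4.43 over 4.81 to 5.49 in Cis and from 5.03 over 5.29 to 5.93 in Trans. Here the lowest group was Cis, with 5 of 8 livers below the lowest Saturated liver, and the Cis mean was exceeded by 8 of 8 Trans livers. The log2 difference of Trans was 0.45 against Cis (standard error 0.13, adjusted p = 0.598, limma) and 0.25 against Saturated (adjusted p = 0.699), and that of Cis against Saturated was −0.20 (adjusted p = 0.848). Without Trans replicates 1 and 4, the difference was 0.35 from Cis and 0.15 from Saturated, and without Trans replicate 1 alone it was 0.17 from Saturated. Thus the order of the group means was Cis, Saturated, Trans for Tpm1 and Saturated, Cis, Trans for Tpm2, and no neighbours in either order passed the test.

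**Figure D3:**
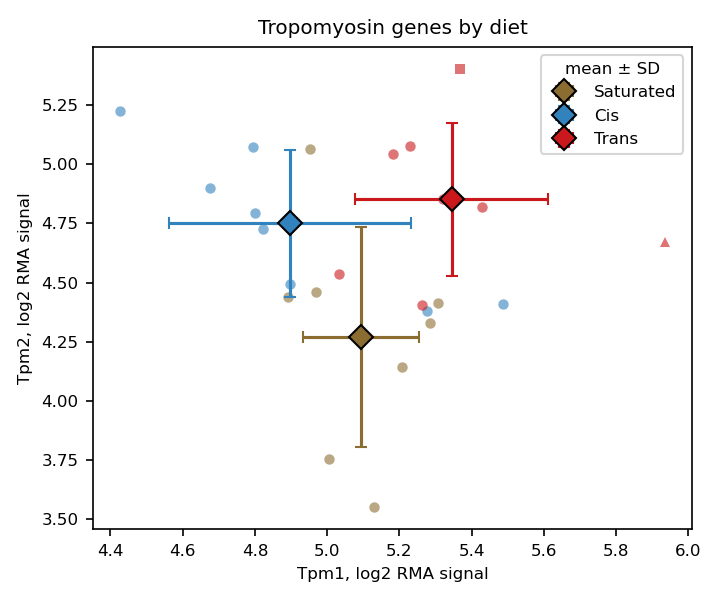
Log2 RMA signal of Tpm1 (x axis) and Tpm2 (y axis) in each liver, coloured by diet. Small symbols are livers (triangle, Trans replicate 1, and square, Trans replicate 4), diamonds and bars are the mean ± SD of 8 livers. Mean Tpm2 was 4.27 in Saturated, 4.75 in Cis and 4.85 in Trans, and mean Tpm1 was 5.09, 4.90 and 5.34.

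Against the Cis diet, the Trans group had a higher mean for 7 of the 7 genes, with a median log2 difference of 0.30 against 0.00 over all genes, of which 50.5% had a higher and 49.5% a lower mean. Limma called 0 of the 7, where 0.00281% of all probe sets were called. At an unadjusted p under 0.05, 2 were higher, Tpm1 and Actg2, and 0 lower, against 3.05% and 3.12% of all probe sets. By Tukey's test at an unadjusted p under 0.05 there was 1, Tpm1. Without Trans replicate 1 the median was 0.19, and without Trans replicates 1 and 4 it was 0.12, with 6 of the 7 means higher. This comparison shares its Trans livers with the preceding one.

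Between the Cis and Saturated diets there was no common direction, with 4 means higher and 3 lower in Cis and a median log2 difference of 0.02, where 51.4% of all genes had a higher and 48.6% a lower mean. The range was from −0.20 (Tpm1) to 0.48 (Tpm2). Limma called 0 of the 7 and 0% of all probe sets. At an unadjusted p under 0.05, by limma as by Tukey's test, 1 was higher, Tpm2, and 0 lower, against 3.3% higher and 3.27% lower of probe sets with limma (2337 in all, and 1011 by Tukey's test). For Myh11 the difference was 0.02, with a 95% interval from −0.40 to 0.45, and for Myl9 it was −0.03, with an interval from −0.66 to 0.60.

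**Figure D4:**
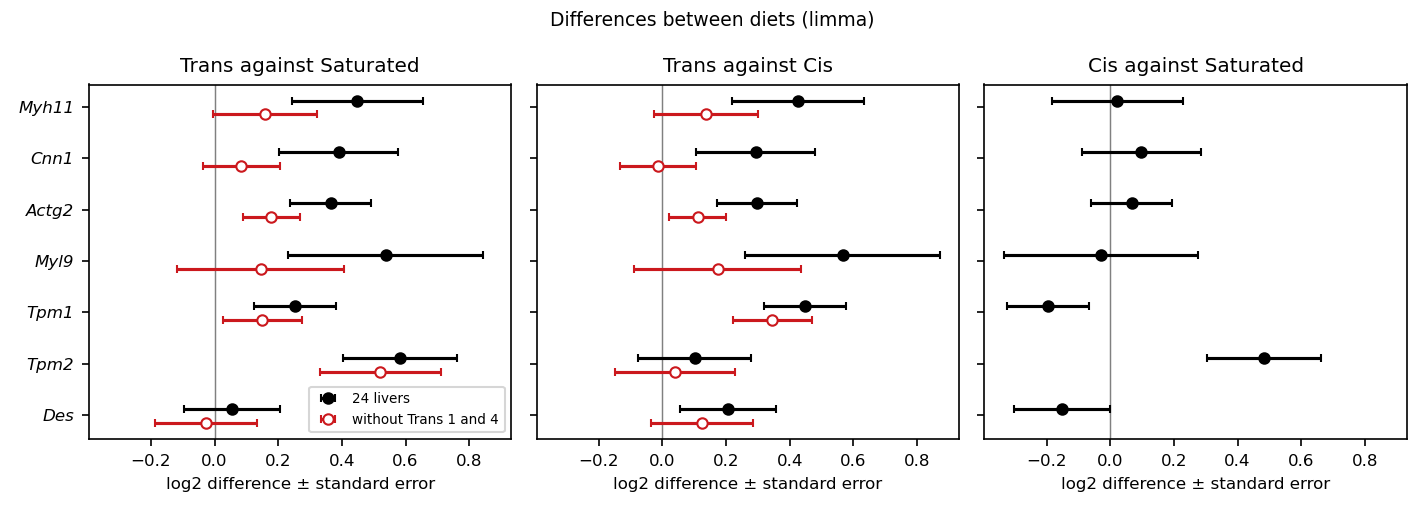
Log2 difference ± standard error of each gene (y axis) in the 3 comparisons between diets, from limma over 24 livers (filled) and without Trans replicates 1 and 4 (open; not drawn for Cis against Saturated). In Trans against Saturated the open symbols of Myh11, Cnn1, Actg2 and Myl9 move to between 0.08 and 0.18, while Tpm2 stays at 0.52.

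With the SD pooled over the diets, livers differed more in these genes than in most others of similar signal. Compared with genes whose mean lay within 0.5 on the log2 scale, the SD within diets was above that of 99.2% of genes for Cnn1, 99% for Myl9, 94.5% for Myh11, 91.5% for Tpm2, 84.4% for Actg2, 78.8% for Des and 77.8% for Tpm1. The SD was higher in Trans than in both other diets for Myh11, Cnn1, Actg2 and Myl9, with 0.62 against 0.38 (Saturated) and 0.19 (Cis) for Myh11. For Tpm1, Tpm2 and Des it was highest in Cis, Saturated and Cis, respectively. The median pooled SD of genes of similar signal was 0.25 for Myh11, 0.18 for Cnn1 and 0.20 for Actg2 and Tpm1. Outside Trans, Actg2 lay below this median in both diets (Saturated 0.15, Cis 0.19), Cnn1 (0.07) and Tpm1 (0.16) in Saturated and Myh11 in Cis. Cnn1 in Cis (0.21), Tpm1 in Cis and Myh11 in Saturated lay above it, as did Myl9, Tpm2 and Des in both. The percentiles without the highest Trans livers were not determined.

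After each diet mean was subtracted, the 7 genes were set against each other over the 24 livers in 21 pairs. Pearson's r was above 0 in 18 of them and ranged from −0.374 to 0.748, with a median of 0.339. P-values came from 100000 permutations within diets and were adjusted over the 21 pairs. For r, 7 pairs were under 0.05, and for rho 0 were. The pair Myh11 and Cnn1 had the highest r, 0.748 (permutation, adjusted p = 0.0471), and a rho of 0.676 (adjusted p = 0.11). Without the 2 livers farthest from the median of Myh11, Trans replicates 1 and 4, its r was 0.520. Over all pairs the median r without these livers was 0.129, with 16 of 21 above 0. The r of Myh11 with Actg2, the heavy chain with its actin, went from 0.415 to −0.105. Tpm1 and Des had an r of 0.519 (permutation, adjusted p = 0.0471) and a rho of 0.549 (adjusted p = 0.11), and without the livers farthest in Tpm1, Trans replicate 1 and Cis replicate 6, their r was 0.576. Tpm1 and Tpm2 had the lowest r, −0.374 (permutation, adjusted p = 0.118), with a rho of −0.483 (adjusted p = 0.146), and an r of −0.314 without the same pair of livers. With all 6 other genes, r of Tpm2 lay between −0.374 and 0.171.

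Of 8346 other genes with a mean signal over 20, Acta2, the alpha actin of smooth muscle and of myofibroblasts, had the values most like the mean of the 7 genes (r = 0.881 and rho = 0.790 over 24 livers after subtraction of the diet means). Without Trans replicates 1 and 4 its r was 0.753. Its log2 value was 6.84 in Trans replicate 1, 6.80 in Trans replicate 4 and 5.77 in Trans replicate 8, the highest of the other 22 livers. The log2 difference of Acta2 was 0.96 against Saturated (standard error 0.36, adjusted p = 0.562, limma) and 0.84 against Cis (adjusted p = 0.802), or 0.40 and 0.28 without the 2 livers. The next in order were Gsn (gelsolin, which severs actin filaments; r = 0.796), Ccdc80, a matrix protein (0.790), Fstl1, a secreted glycoprotein (0.780), Slc13a3, a dicarboxylate transporter (0.778), Tgfbi, a matrix protein induced by TGF beta (0.760), S100a11, a calcium binding protein (0.747), Pcolce, an enhancer of procollagen processing (0.744), Sparc, a collagen binding matrix protein (0.732) and Col6a1, a collagen chain of the microfibrils (0.731). Without Trans replicates 1 and 4, r of these 9 lay between 0.517 and 0.604. Of the 9, 8 were higher in both livers than in each of the other 22, and Pcolce was so in Trans replicate 4 alone. These 2 livers lay farthest out in the mean by which Acta2 and the 9 genes were picked. Their high values in these genes thus follow in part from the choice and are no separate observation.

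Of 21 other measured smooth muscle genes, 18 had a higher mean in Trans than in Saturated and 17 than in Cis, with median log2 differences of 0.16 and 0.14, or 0.05 in both without Trans replicates 1 and 4. Limma called 0 of them. At an unadjusted p under 0.05, 3 were higher and 0 lower against Saturated, and 7 and 0 against Cis. Besides Acta2 they included Vcl (vinculin, which anchors actin at the membrane), with 0.17 against Saturated and 0.23 against Cis and 8 of 8 Trans livers above both means, and Mylk, the kinase of the light chain, with 0.20 against Saturated and a mean of 7.29 in both Trans and Cis. Synpo2, an actin binding protein of muscle, had 0.29 and 0.41, or 0.10 and 0.21 without Trans replicates 1 and 4. Tagln, which encodes transgelin, a calponin relative, had 0.39 and 0.56, or 0.13 and 0.30 without the 2 livers, and an r of 0.776 with the mean of the 7 genes. Ppp1r14a, an inhibitor of myosin phosphatase, had −0.06 against Saturated and Pdlim7, a scaffold on actin filaments, had −0.15. With Synm, the filament protein synemin (−0.03), these were the 3 whose Trans mean was below that of Saturated. The mean log2 values of Synpo2 (1.91) and Synm (2.38) lay below the median of every array, so that little can be read from their differences.

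Of 14 transcriptional regulators, 8 had a higher mean in Trans than in Saturated and 10 than in Cis, where 51.6% and 50.5% of all genes did. Limma called 0 in both comparisons, and at an unadjusted p under 0.05 there were 0 in the comparison with Saturated and 1 in that with Cis. A mean signal over 20 was reached by 7 of the 14. The mean log2 values of Myocd (1.71) and Klf4 (2.90) lay below the median of every array, so that little can be read from their differences. The values against Saturated follow. Myocd, the coactivator myocardin, had a log2 difference of −0.03, Srf, the serum response factor, had −0.13, Mrtfa and Mrtfb, the myocardin related coactivators, had −0.19 and 0.24, Mef2c, a muscle transcription factor, had 0.12, and Klf4, a repressor of the contractile genes, had 0.27. Klf4 was the 1 regulator at an unadjusted p under 0.05 against Cis, with 0.35 (adjusted p = 0.759, limma). Without Trans replicates 1 and 4 its differences were 0.12 from Saturated and 0.20 from Cis. Among 10 regulators of myosin phosphorylation, 4 had a higher mean in Trans than in Saturated (median log2 difference −0.03) and 8 than in Cis (median 0.09). Limma called 0 in both comparisons, and at an unadjusted p under 0.05 there was 1 in the comparison with Saturated and 0 in that with Cis. This 1 was Prkg1, the cGMP dependent kinase that relaxes smooth muscle, with 0.26 against Saturated. Rhoa and Rock1, which keep the light chain phosphorylated, had 0.04 and −0.16 against Saturated (0.06 for Rock1 without Trans replicates 1 and 4), and Pde5a, which breaks down cGMP, had 0.08.

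The non-muscle relatives of the 7 genes, all 13 with a mean signal over 20, had a higher mean in 12 of 13 against Saturated. Over all genes, 51.6% did. Their median log2 difference was 0.10, or 0.04 without Trans replicates 1 and 4, and limma called 0 (1 at an unadjusted p under 0.05). Vim, the filament protein vimentin of mesenchymal cells, had 0.42. The non-muscle myosin heavy chains Myh9 and Myh14 had 0.14 and 0.17, the light chain Myl12a had 0.14, and the calponin relative Cnn3 had −0.02.

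Markers of other cell types were set beside these values. Over all genes, 51.6% had a higher mean in Trans than in Saturated and 50.5% than in Cis. At an unadjusted p under 0.05, limma gave 3.79% of all probe sets higher and 3.54% lower against Saturated. Portal fibroblast markers had a higher mean in Trans for 11 of 11 measured genes against both diets, with a median log2 difference of 0.28 from Saturated, or 0.09 without Trans replicates 1 and 4. Limma called 0, with 3 at an unadjusted p under 0.05. A mean signal over 20 was reached by 1 of the 11, Gas6 (136), which makes up the largest part of their summed linear signal. This sum ran from 155 to 256 in Saturated, from 145 to 274 in Cis and from 184 to 418 in Trans. The highest 2 livers of all 24 were Trans replicates 1 (418) and 4 (337). The log2 value of Gas6 was 8.03 in Trans replicate 1 and 7.33 in Trans replicate 4, against at most 7.56 in the other livers. Eln (elastin) had a log2 difference from Saturated of 0.36, Gas6, a ligand of receptor kinases, one of 0.48, Loxl1, a crosslinking enzyme of elastic fibres, one of 0.32 and Cd34, a surface glycoprotein, one of 0.28. Endothelial markers, with a mean signal over 20 in 11 of 12, were also highest in these 2 livers, with a summed signal of 1604 in replicate 4 and 1532 in replicate 1 against at most 1489 in Saturated and 1473 in Cis. The part of these cells in the smooth muscle values was not tested.

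In the other marker lists the summed signal was not highest in both livers. Markers of striated muscle, of which 2 of 32 had a mean signal over 20, summed to 234 in Trans replicate 1 and 248 in Trans replicate 4, within the Saturated range of 218 to 269, and their median log2 difference from Saturated was 0.04. At an unadjusted p under 0.05, limma gave 1 higher, Acta1 (0.22), and 2 lower, Atp2a1 (−0.14) and Neb (−0.35). Ckm, the muscle creatine kinase, had 0.23. The summed signal of 8 stellate cell markers was lowest of all 24 livers in Trans replicate 4 (609) and ran from 700 to 802 in Saturated. Of these markers Colec11 had a log2 difference from Saturated of −0.25, Lrat, which stores retinol as ester, −0.25, Reln −0.10 and Pdgfra, the growth factor receptor of fibroblasts, 0.27, with limma calling 0 of 8 (2 lower and 1 higher at an unadjusted p under 0.05). Pericyte and vessel wall markers had a median of 0.02 over 10 genes.

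Of the remaining lists, 5 of 10 cholangiocyte markers had a higher mean in Trans than in Saturated, among them the keratin Krt23, the 1 gene of any list that limma called. Of 7 mesothelial markers 3 had a higher mean, of 10 intestinal epithelium markers 9, of 8 exocrine pancreas markers 5 and of 10 Kupffer cell and macrophage markers 4. Of 12 hepatocyte markers 1 had a higher mean, with a median log2 difference of −0.04, and their summed signal was lowest of all livers in Trans replicate 1. Adipocyte markers, 4 of 8 with a mean signal over 20, had a higher mean in 8 of 8 in Trans against Saturated. The median was 0.15, or 0.08 without Trans replicates 1 and 4. In Cis against Saturated they were also higher in 8 of 8, with a median of 0.13. In Trans against Cis they were higher in 6 of 8, with a median of 0.09, or −0.07 without the 2 livers. Averaged over genes they lay 0.70 above the Saturated mean in replicate 1 and 0.85 in replicate 4, above the other 22 livers (−0.40 to 0.67). Their summed signal ranked 22 and 23 of 24 in these livers, but nearly all of this sum is Car3 (mean signal 5052, against 83 for Cidec, the next). Which cells carried these signals, and what part they had in the smooth muscle values, was likewise not tested.

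**Figure D5:**
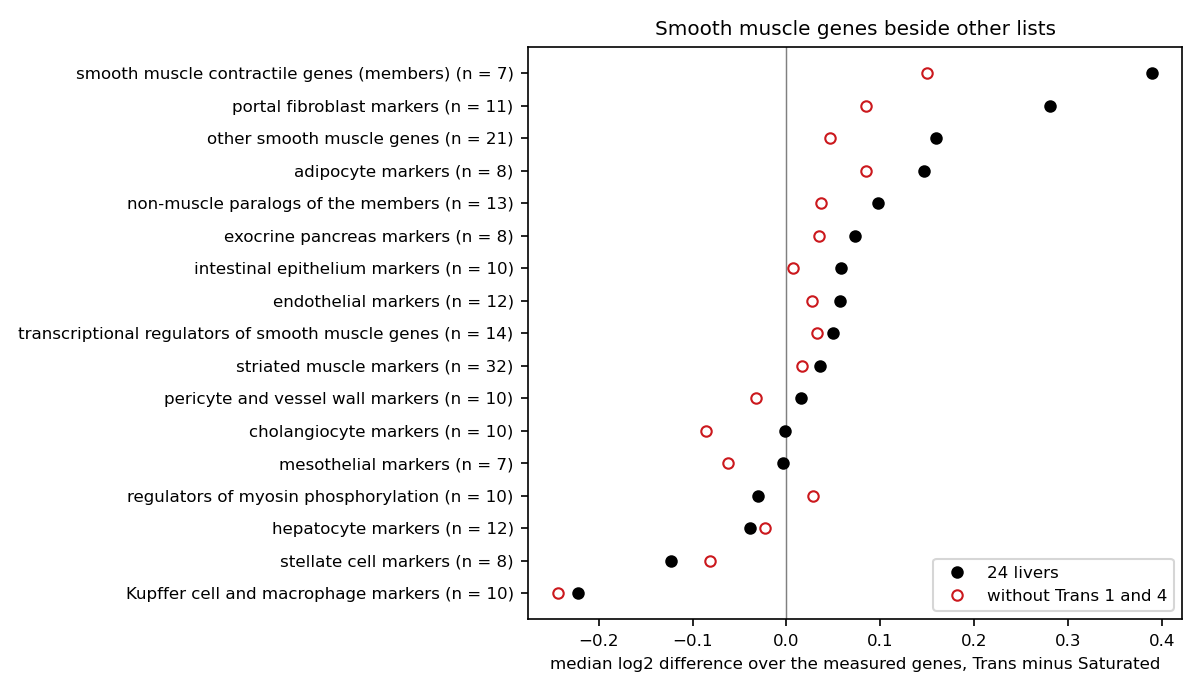
Median log2 difference of Trans from Saturated over the measured genes of each list (n in brackets), over 24 livers (filled) and without Trans replicates 1 and 4 (open). The contractile genes lie at 0.39 and portal fibroblast markers at 0.28, and without the 2 livers at 0.15 and 0.09.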

How the data were processed

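Biotin labelled total RNA of 24 livers was measured on Affymetrix Mouse Gene 1.1 ST arrays, with 1 array for each mouse. RMA was run by the authors, and the deposited values are log2 signals, background corrected, quantile normalized and summarized per probe set. Versions are not given in the sources used here. Of 35556 probe sets, 21218 carry a single gene in the platform annotation, 1881 several and 12457 none. Signals on the linear scale are powers of the log2 values. RMA shrinks differences of probe sets near background.

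For the comparisons, limma 3.58.1 was run under R 4.3.3 (lmFit over the 3 diets, 21 residual degrees of freedom, eBayes, two-sided, Benjamini-Hochberg over all probe sets, called under 0.05). Intervals are at 95%. The procedure was tested on simulated data. The number of arrays limits the precision, and no scan date was at hand to test as a batch. The 7 genes and the 16 other lists (196 of 215 other genes measured) were chosen with earlier results of these data known. Named genes are the 7, up to 4 per list described with the smallest p in Trans against Saturated, genes of signal over 20 against their list, and the 10 most alike. Knowing their values, Tagln, Myocd and Srf were added for their roles.

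The alternatives changed the normalization (quantile again, median centring), the filter (a mean signal over 20), the fit (array weights, a replicate block, trend with robust estimation, only the 2 groups), the test (Tukey's post hoc test, a fold over 1.5) or the input (all probe sets of a gene averaged, each liver left out). Leaving out Trans replicates 1 and 4 together was chosen after seeing the data.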

Additional observations from a re-analysis of the deposited data

Results flagged for a closer look

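Of 21 combinations of a gene and a diet, 3 held a liver whose gap to the next was large for the range of its group of 8 by Dixon's test (gap over range 0.561, 0.556 and 0.529 in the order given). Chance flags about 1 in 20 such groups. Tpm1 was 5.93 on the log2 scale in Trans replicate 1, with the next liver at 5.43. Cnn1 was 2.23 in Cis replicate 1, with the next at 1.87. Actg2 was 2.46 in Saturated replicate 4, with the next at 2.19. The high values of Myh11, Cnn1, Actg2 and Myl9 in Trans did not meet this test in replicates 1 and 4. In these genes the 2 livers are the highest 2 of their group, so the gap measured is the one between them. The test therefore cannot decide whether both lie apart from the other Trans livers.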

How the results depend on the processing

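Limma and Tukey's test called 0 of the 7 genes in any comparison under any alternative, and over 702 refits of a single gene the smallest adjusted p was 0.222. The median log2 difference of the 7 genes fell most without Trans replicates 1 and 4 together, from 0.39 to 0.15 for Trans against Saturated and from 0.30 to 0.12 for Trans against Cis. The number of probe sets called over the whole array moved more. For Trans against Saturated it was 3, and became 5 with a mean signal over 20, 5 with the replicate block, 1 with median centring and 0 with only the 2 groups, with Tukey's test and without Trans replicates 1 and 4 together. For Trans against Cis it was 1, and 0 under the same settings except median centring. Leaving out each liver gave 1 to 16 (Saturated replicate 2 left out), 0 to 2 and, for Cis against Saturated, 0 to 3. The median of the 7 genes then ran from 0.26 (without Trans replicate 1) to 0.48 for Trans against Saturated, from 0.19 (the same liver) to 0.39 for Trans against Cis and from −0.03 to 0.07 for Cis against Saturated. Differences near 0 changed sign, namely Des in Trans against Saturated (−0.038 to 0.114 over single livers left out, and −0.027 without both Trans livers), Cnn1 in Trans against Cis (−0.013 without both), and in Cis against Saturated Myh11 (−0.061 to 0.073) and Myl9 (−0.179 to 0.080, and 0.013 with quantile normalization again). The cause was not tested. Of 24 same-numbered pairs of livers from different diets, 10 correlated above 0.1 (range −0.10 to 0.29), and 3 livers correlated best with their own number. Without the values of pairs with unlike numbers, this cannot decide whether the replicate numbers mark a pairing. Each of the 7 genes has 1 probe set, so that averaging probe sets changed nothing. Low signal limits Cnn1 and Actg2 most.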
